A study of Mus musculus with 6 samples.

Results

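The SOCS family, which comprises Cish and Socs1 to Socs7, was examined by RNA sequencing in mouse helper T cells. All 8 family genes were found by symbol among the 24421 genes of the deposited table. The cells were wild-type primary T cells, isolated from spleen as naive CD4 cells and cultured under conditions that drive the Th17 state, the helper type that makes interleukin 17. The pemafibrate group (3 samples, numbered 3, 7 and 8 in their titles) was given 10 nM of pemafibrate, a drug that activates the nuclear receptor PPARalpha, until day 2. The vehicle group (3 samples, numbered 3, 4 and 7) is labelled as treated with vehicle. Both groups were then fed for 2 days with IMDM containing 10% serum, so the values describe cells 2 days after treatment ended. The labels give no animal, age or culture for a sample. The spread behind the p-values is that of these samples alone and may be technical.

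SOCS proteins are feedback inhibitors of cytokine signalling. A cytokine receptor activates JAK kinases, these phosphorylate STAT factors, and STAT dimers enter the nucleus and switch on genes, SOCS genes among them. Each family member carries an SH2 domain, which binds phosphorylated tyrosines, and a SOCS box, which recruits a ubiquitin ligase. SOCS1 and SOCS3 also block the JAK kinase directly. In T cells CISH and SOCS2 are known as products of STAT5 signalling downstream of interleukin 2, SOCS1 as an inhibitor of interferon gamma and common gamma chain cytokine signals, and SOCS3 as the main inhibitor of STAT3 signals from interleukin 6 and interleukin 23.

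The sequences at the start sites of 3 abundant members are shown because they carry the letters that STAT and IRF factors are known to bind. STAT dimers bind the palindrome TTCNNNGAA, and interferon regulatory factors bind repeats such as GAAANNGAAA. Both were searched on both strands in the RefSeq (GRCm38.p6) windows from 250 bases before to 50 bases after each start, which were present for 4 members (Cish, Socs1, Socs3 and Socs4). Matches are in capitals. The Socs1 sequence (chr16:10785537-10785786, minus strand) is the 250 bases before its start. The Cish stretch (chr9:107296654-107296683, plus strand) spans its start, and the Socs3 stretch (chr11:117969501-117969530, minus strand) lies upstream of the start that its window is built on, base 117969366. For Socs3 that start is not the outermost one: it lies 970 bases inside the RefSeq gene, which begins at base 117970336, so the stretch is within the gene as annotated. In the GENCODE M21 annotation Cish begins further upstream, at base 107296026, so there the Cish stretch is within the gene too.
Socs1: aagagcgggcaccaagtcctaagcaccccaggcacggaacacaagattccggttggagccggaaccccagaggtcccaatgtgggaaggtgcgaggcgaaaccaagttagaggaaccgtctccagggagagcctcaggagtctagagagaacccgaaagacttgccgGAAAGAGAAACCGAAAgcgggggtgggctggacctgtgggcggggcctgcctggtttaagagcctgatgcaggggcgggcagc
Cish: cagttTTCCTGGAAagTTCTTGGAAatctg
Socs3: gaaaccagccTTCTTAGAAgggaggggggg

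Cish held 2 matches to TTCNNNGAA, beginning at bases 1 and 12 counted from the start as base 1. Socs3 held 1, beginning 154 bases before the start of its window. Socs1 held no match to that palindrome and 2 overlapping matches to GAAANNGAAA, beginning 83 and 77 bases before its start. Socs4 held neither in this window. The palindrome was found in 8.30% and the repeat in 3.44% of all 32851 windows. A match describes letters only, and binding was not measured.

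The libraries held 14935351 to 18322467 reads, as implied by the steps of the deposited RPKM values (read numbers divided by gene length and library size). These steps gave whole reads for all 16822 genes above 0, within a tolerance of 0.0001 reads. Family members had from 205 reads (Socs5, pemafibrate 7) to 6996 reads (Cish, vehicle 3) in a library. All 7 T cell markers were present, with mean levels from 117 to 344 RPKM, and their summed level was 1342 to 1391 RPKM in pemafibrate and 1311 to 1363 RPKM in vehicle samples. Of 16 markers of B cells, CD8 T cells, natural killer cells, myeloid cells and red cells, 10 stayed under 1 RPKM in every library, among which Hba-a1 and Hbb-bt were at 0 in all. Their summed level was 17.4 to 21.4 RPKM in pemafibrate and 16.7 to 21.5 RPKM in vehicle samples, with Lyz2 highest at a mean of 6.22 RPKM. The 3 Th17 markers Il17a, Il17f and Ccr6 summed to 1285 to 1580.4 RPKM in pemafibrate and 1729 to 1929 RPKM in vehicle samples. That sum separated the groups, and its part in the results on the family was not tested. Of these 3 markers limma called 1 as higher and 0 as lower, and voom called 1 as higher and 2 as lower. Over all tested genes limma called 0.352% and voom 1.25%.

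The family was expressed at 2 very unequal tiers. Cish, Socs1, Socs3 and Socs2 made up 91.7% to 92.6% of the summed RPKM of the 8 genes in each library. That sum was 435, 464 and 465 RPKM in pemafibrate 3, 7 and 8, and 467, 482 and 440 RPKM in vehicle 3, 4 and 7, so the groups overlapped. By mean level over the 6 samples the order was Cish (175 RPKM), Socs1 (109.7 RPKM), Socs3 (79.9 RPKM), Socs2 (58.5 RPKM), Socs4 (17.7 RPKM), Socs7 (8.50 RPKM), Socs6 (6.44 RPKM) and Socs5 (2.98 RPKM). No neighbours in this order overlapped in their ranges over the 6 samples, and each of the 7 neighbouring pairs kept its order in 6 of 6 samples. In a two-sided exact permutation test of the paired log2 levels each pair had p = 0.03125, the smallest that 6 samples allow, and the same value after adjustment over the 7 pairs. The order was taken from these same values, so the test shows only that it repeated from sample to sample. The widest step lay between Socs2 and Socs4, at a mean of 3.21-fold (range over samples 2.63 to 3.60). The narrowest lay between Socs7 and Socs6, at 1.298-fold (1.20 to 1.39), both from levels as RPKM + 0.5. These levels depend on the gene length behind each RPKM value, which the values imply to be 1339 bases for Socs1 and 2161 bases for Cish. All exons of the GENCODE M21 annotation together span 2908 and 6419 bases for these genes. For Socs3 and Socs2 the implied lengths were 2724 and 2698 bases, against exon spans of 2891 and 9531 bases. With other lengths the order of the members could therefore differ, which was not tested.

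**Figure D1:**
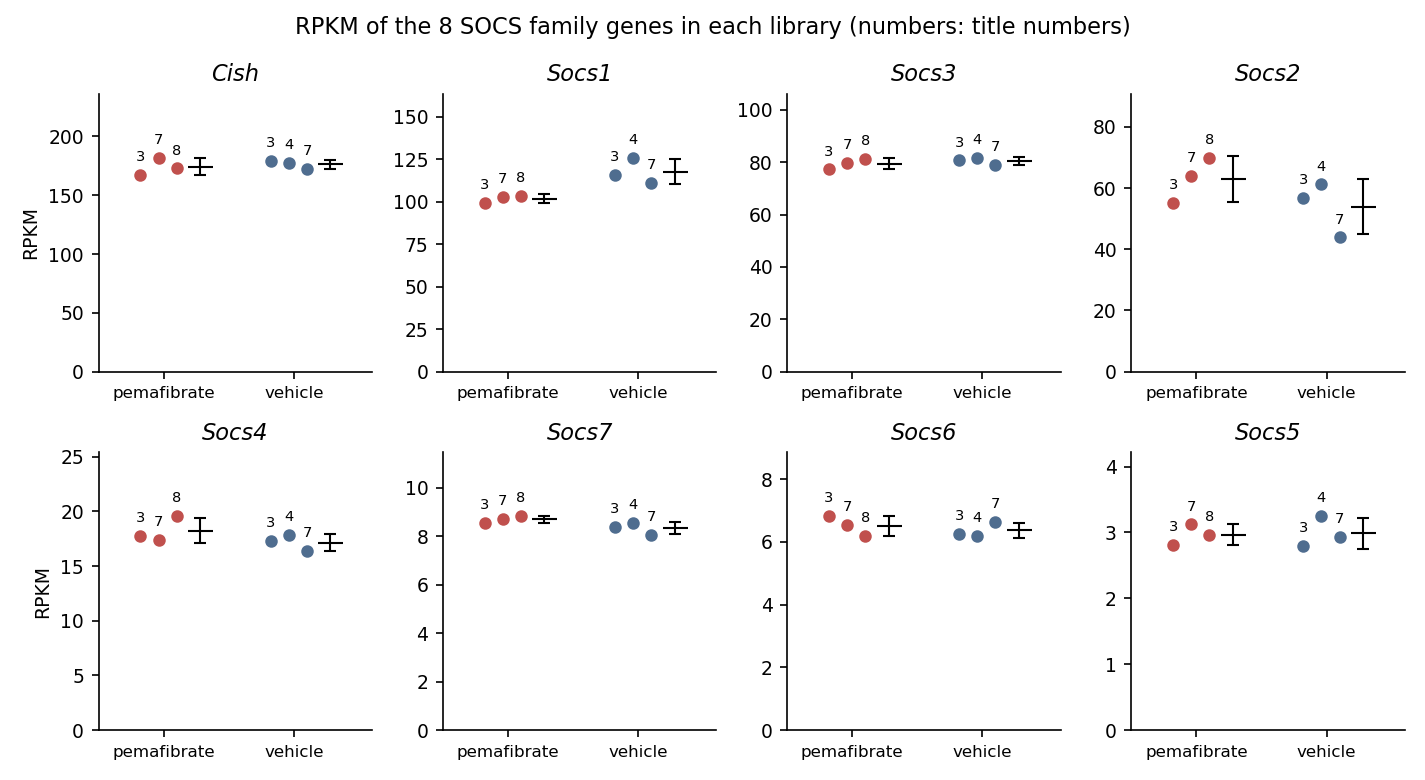
RPKM of each SOCS family gene in each library, in order of mean level, with pemafibrate samples in red and vehicle samples in blue. Numbers are the title numbers, the bars give mean ± SD of 3 samples, and every axis starts at 0. Socs1 is the one gene whose groups do not overlap, with 99.0 to 103.4 RPKM in pemafibrate and 111.1 to 125.8 RPKM in vehicle samples.

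The comparison of pemafibrate with vehicle asked whether these inhibitors differ in cells that had been treated. None of the 8 family genes passed an adjusted p of 0.05 in limma over all 11360 genes that averaged 0.5 RPKM or more, where 0.352% of genes passed. All 8 reached that mean. The groups did not overlap in 1 member (Socs1), against 15.0% of tested genes. By an unadjusted p under 0.05, 1 member (Socs1) stood out with limma, against 9.67% of all tested genes, and 2 (Socs1 and Socs2) with voom on the recovered reads, against 9.62%. No member passed voom after adjustment, where 1.25% of genes did. Of the 8 log2 differences 4 were above 0 and 4 below, with a median of 0.011 (all tested genes 0.0052). The median size of the difference regardless of sign was 0.045, against 0.056 over all tested genes. In these bulk samples fewer cells of a type and less RNA per cell cannot be told apart.

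Socs1, the inhibitor of interferon gamma and common gamma chain cytokine signals (chromosome 16, 10783808 to 10785536, GRCm38), was the family member with the smallest p. Its level was 99.0, 102.9 and 103.4 RPKM in pemafibrate 3, 7 and 8, against 115.8, 125.8 and 111.1 RPKM in vehicle 3, 4 and 7. Every pemafibrate sample lay below every vehicle sample, a separation seen downward in 7.31% and upward in 7.67% of tested genes. The read numbers behind these levels were 2430, 2058 and 2445 in pemafibrate and 2807, 2879 and 2573 in vehicle samples. The means were 102 ± 2.38 RPKM in pemafibrate and 118 ± 7.50 RPKM in vehicle samples (SD, n = 3 each).

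The Socs1 log2 difference on the log2(RPKM + 0.5) scale was -0.21 ± 0.05 (SE), with a 95% interval from -0.32 to -0.09, so that the fitted level in pemafibrate was 0.867 of that in vehicle (0.800 to 0.941). It did not pass over all genes, with an adjusted p of 0.194 by limma and an unadjusted p of 0.00381, which ranked 223 among 11360 genes. With voom the adjusted p was 0.0675. In the authors' deposited table Socs1 had a log2 fold change of -0.21 and an adjusted p of 0.0113, and it was the only member under 0.05 there, where 1.73% of the genes above 0 were. The call therefore depends on the test applied to the same 6 libraries. Across 16 alternatives the difference ran from -0.25 to -0.16, always below 0, with adjusted p from 0.0675 to 0.798.

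Socs2, a product of STAT5 signalling that restrains growth hormone and other STAT5 signals (chromosome 10, 95383903 to 95417321), had the widest spread of the family. Its level was 55.2, 64.03 and 69.9 RPKM in pemafibrate 3, 7 and 8, against 56.7, 61.2 and 43.9 RPKM in vehicle 3, 4 and 7. The groups overlapped, with vehicle 7 lowest and pemafibrate 8 highest. Its coefficient of variation over the 6 samples of both groups together was 15.2%, beside 3.01% for Cish and 2.13% for Socs3.

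The means for Socs2 were 63.0 ± 7.44 RPKM in pemafibrate and 53.9 ± 8.98 RPKM in vehicle samples, a log2 difference of 0.23 ± 0.13 (SE) with a 95% interval from -0.07 to 0.53 (limma adjusted p = 0.671). The log2 fold change of Socs2 was 0.22 in the authors' deposited table, with an adjusted p of 0.0822. The difference was 0.091 without vehicle 7 and 0.15 without pemafibrate 8, against 0.33 without vehicle 4 and 0.32 without pemafibrate 3. These are the 4 libraries that lay farthest out on the second principal component of log2 expression, computed without the family members, which held 24.9% of the variance and did not separate the groups. The first component held 26.4% and did separate them (6.73 to 11.3 in pemafibrate, -11.9 to -7.05 in vehicle samples). Scores on the second component were -10.6, 3.27 and 10.4 for pemafibrate 3, 7 and 8, and -0.30, 9.33 and -12.1 for vehicle 3, 4 and 7. Pemafibrate 3 and vehicle 7 were thus lowest both on that component and in Socs2, and its part in the Socs2 difference was not tested.

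The ratio of the Socs1 level to the Socs2 level, both in RPKM, was 1.80, 1.61 and 1.48 in pemafibrate 3, 7 and 8, against 2.04, 2.06 and 2.53 in vehicle 3, 4 and 7. The groups did not overlap in this ratio, which combines the 2 members with the largest differences and was not tested. Set against Cish, the Socs1 level was 0.591, 0.566 and 0.598 of it in pemafibrate samples and 0.648, 0.708 and 0.646 of it in vehicle samples. The Socs2 level was 0.329, 0.352 and 0.405 of Cish in pemafibrate samples, against 0.317, 0.344 and 0.255 in vehicle samples, with overlap.

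Cish, the family member induced most directly by STAT5 and the one with the highest RPKM here (chromosome 9, 107296659 to 107302784), did not differ detectably between the groups. Its level was 168, 182 and 173 RPKM in pemafibrate 3, 7 and 8, against 179, 178 and 172 RPKM in vehicle 3, 4 and 7. Pemafibrate samples held both the lowest and the highest value, and the vehicle samples lay between them. The log2 difference was -0.018 ± 0.041 (SE, limma adjusted p = 0.940), and its 95% interval from -0.11 to 0.08 corresponds to levels from 0.924 to 1.06 of that in vehicle. In GENCODE M21 the Cish exons overlap those of the antisense gene Gm17041 by 479 bases and of the pseudogene Gm17040 by 261 bases on the other strand. Whether the counting used strand is not given in the sources used here, and without strand the reads of these genes cannot be told apart from those of Cish.

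Socs3, the inhibitor of STAT3 signals (chromosome 11, 117966079 to 117970336), was the steadiest member. Its level was 77.2, 79.6 and 81.3 RPKM in pemafibrate 3, 7 and 8, against 80.7, 81.7 and 78.8 RPKM in vehicle 3, 4 and 7. The groups overlapped over most of their range. The log2 difference was -0.018 ± 0.036 (SE, limma adjusted p = 0.930), with a 95% interval from -0.10 to 0.07. Cish and Socs3 had the narrowest intervals of the family.

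**Figure D2:**
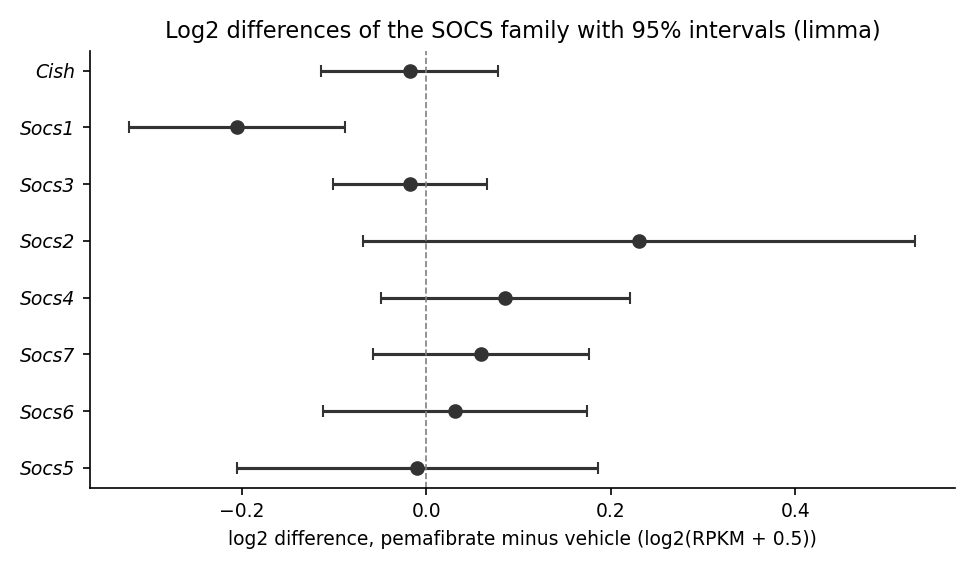
Log2 difference of each family gene, pemafibrate minus vehicle, on the log2(RPKM + 0.5) scale, with the 95% interval from limma (3 samples a group). The interval of Socs1 (-0.32 to -0.09) lies below 0 before adjustment over all genes, and that of Socs2 (-0.07 to 0.53) is the widest.

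The 4 members of the lower tier did not pass either. Socs4, which like Socs5 is known to act on the epidermal growth factor receptor, had 17.7, 17.4 and 19.6 RPKM in pemafibrate 3, 7 and 8, against 17.3, 17.8 and 16.3 RPKM in vehicle 3, 4 and 7, with overlap of the groups. Its log2 difference was 0.086 (95% interval -0.05 to 0.22, limma adjusted p = 0.742). Socs5, known to restrain interleukin 4 receptor signalling, had 2.81, 3.12 and 2.96 RPKM in pemafibrate and 2.79, 3.25 and 2.93 RPKM in vehicle samples. Its log2 difference was -0.0098 (95% interval -0.21 to 0.19, limma adjusted p = 0.985), on 205 to 244 reads a library. The pemafibrate samples lay inside the vehicle range, and the interval was wider than for Cish and Socs3.

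Socs6 and Socs7 encode members with long N-terminal regions that are known to bind insulin receptor substrates. Socs6 (chromosome 18) had 6.82, 6.53 and 6.19 RPKM in pemafibrate 3, 7 and 8, against 6.26, 6.18 and 6.65 RPKM in vehicle 3, 4 and 7. Its log2 difference was 0.031 (95% interval -0.11 to 0.17, limma adjusted p = 0.930). Socs7 had 8.53, 8.71 and 8.82 RPKM in pemafibrate samples and 8.38, 8.53 and 8.05 RPKM in vehicle samples, a log2 difference of 0.059 (95% interval -0.06 to 0.18, limma adjusted p = 0.804). The groups overlapped for Socs6. For Socs7 pemafibrate 3 and vehicle 4 were almost level, and the other pemafibrate samples were above every vehicle sample.

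**Figure D3:**
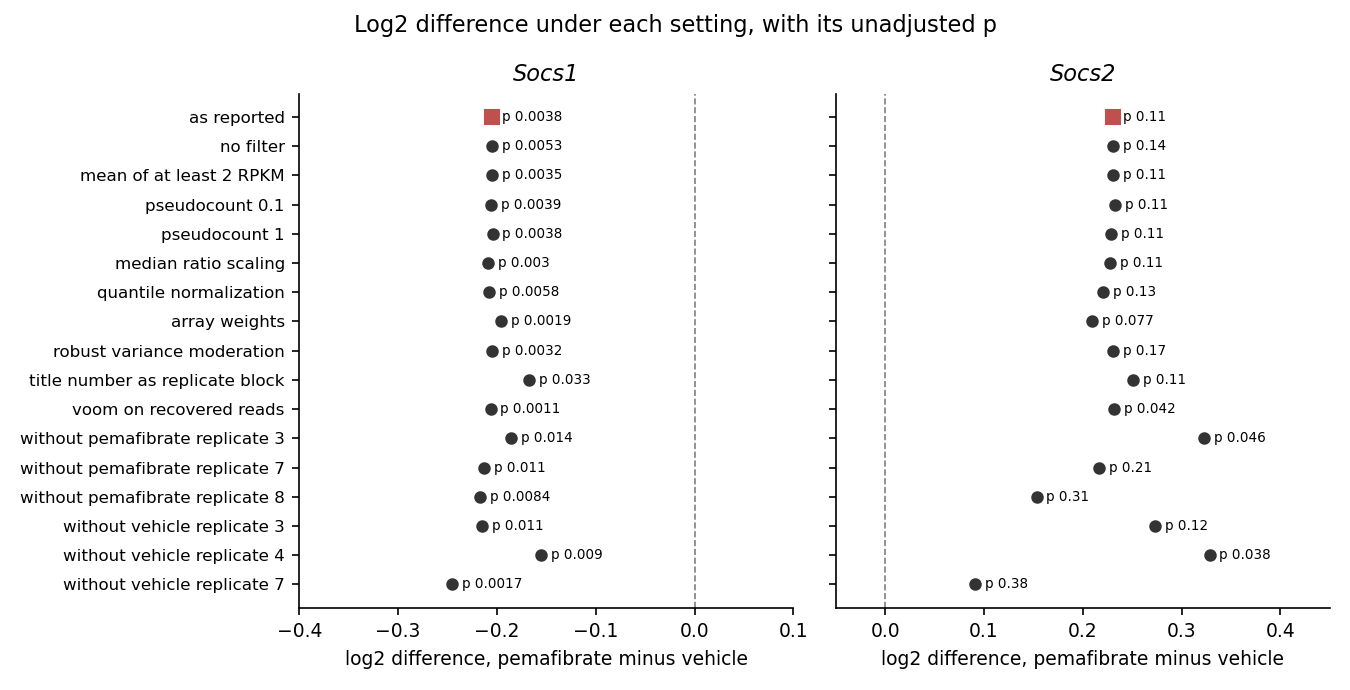
Log2 difference of Socs1 and Socs2 as reported (red squares) and under the 16 alternatives (black circles), each with its unadjusted p. Socs1 stays between -0.25 and -0.16, while Socs2 runs from 0.091 without vehicle 7 to 0.33 without vehicle 4.

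The genes with the profile nearest to Socs1 over the 6 samples, among 7513 other protein-coding genes that averaged 5 RPKM or more, were Gzmb, Ipmk, Fndc3a and Mpp2. Their root mean square distance from Socs1 in centred log2 levels was 0.0250, 0.0255, 0.0270 and 0.0310, against a median of 0.132 over these genes. Gzmb, which encodes granzyme B, had 58.1, 61.7 and 60.9 RPKM in pemafibrate 3, 7 and 8, against 67.4, 71.2 and 65.0 RPKM in vehicle 3, 4 and 7, lower in pemafibrate without overlap like Socs1 (limma adjusted p = 0.232). The genes nearest to Socs2 were Armcx6, Gprin3, Lipe and Pim2, at distances of 0.0747, 0.0786, 0.0791 and 0.0806. Pim2, a survival kinase, had 59.7, 71.9 and 79.8 RPKM in pemafibrate 3, 7 and 8, against 69.0, 74.4 and 56.1 RPKM in vehicle 3, 4 and 7, again with vehicle 7 and pemafibrate 3 lowest (limma adjusted p = 0.903). All these genes were picked for their likeness over the same 6 samples, so the shared directions and orders follow from the choice.

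The signalling chain around the family was compared through lists of its parts, with family members left out. Of 4 JAK kinases and 6 STAT factors, all tested, limma called 0 and voom 0, and an unadjusted limma p under 0.05 was held by 1 kinase (Jak3) and 0 STAT factors. Jak3, the kinase of the common gamma chain, had 109.8 ± 2.98 RPKM in pemafibrate and 119 ± 3.64 RPKM in vehicle samples (log2 difference -0.12 ± 0.04, limma adjusted p = 0.376). Jak2 had 51.2 RPKM in pemafibrate and 48.4 RPKM in vehicle samples, and Jak1 had 64.8 RPKM in pemafibrate and 64.9 RPKM in vehicle samples. Stat4, which acts downstream of interleukin 12, had 7.48 RPKM in pemafibrate and 6.89 RPKM in vehicle samples. Stat5a had 52.9 RPKM in pemafibrate and 51.6 RPKM in vehicle samples, and Stat6 had 62.7 RPKM in pemafibrate and 61.3 RPKM in vehicle samples. The median log2 difference was -0.00066 for the kinases and 0.028 for the STAT factors.

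Among genes that act above the JAK kinases limma called receptor chains as lower only and ligands in both directions. Over all tested genes limma called 0.352%. Of 27 receptor chains 21 were tested, and the 2 that fell were Il12rb2, a chain of the interleukin 12 receptor, and Il23r, the specific chain of the interleukin 23 receptor. Il12rb2 had 29.7 ± 1.22 RPKM in pemafibrate and 39.3 ± 2.84 RPKM in vehicle samples (limma adjusted p = 0.0492), and Il23r had 3.83 ± 0.141 RPKM in pemafibrate and 5.94 ± 0.422 RPKM in vehicle samples (limma adjusted p = 0.0362). The median of the receptor list was -0.0023, with 10 differences above 0 and 11 below. An unadjusted limma p under 0.05 was held by 5 receptor chains, in both directions, against 9.67% of all tested genes. Of 14 ligand genes 11 were tested, with Il9 and Il22 higher and Il21 lower, and the median was 0.058. Il21 had 63.1 ± 3.85 RPKM in pemafibrate and 93.0 ± 1.96 RPKM in vehicle samples (log2 difference -0.56 ± 0.05, limma adjusted p = 0.0104), and Il9 had 76.4 ± 2.41 RPKM in pemafibrate and 42.2 ± 6.74 RPKM in vehicle samples (0.86 ± 0.10, limma adjusted p = 0.0314). Il22 had 10.5 ± 0.668 RPKM in pemafibrate and 7.68 ± 0.249 RPKM in vehicle samples and passed limma (adjusted p = 0.0412) but not voom (0.0599). Voom called 2 lower receptor chains, and 1 higher and 3 lower ligands, against 1.25% of all genes it tested. These limma calls were close to the threshold. With any 1 of the 6 samples left out, Il12rb2 (adjusted p 0.0908 to 0.174) and Il22 (0.0889 to 0.171) no longer passed, Il23r passed only without vehicle 7 (0.0454 to 0.156) and Il9 only without vehicle 3 or vehicle 7 (0.0187 to 0.150), while Il21 was lost without pemafibrate 7 (0.0641) or vehicle 3 (0.0748). With no filter on low values Il21 alone of the 5 passed (0.0477), against 0.130 for Il12rb2, 0.117 for Il23r and Il9, and 0.120 for Il22.

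Limma called 0 of 7 genes of the ubiquitin ligase that the SOCS box recruits, and voom also 0, and 0 had an unadjusted p below 0.05 by limma. The 3 with the smallest p were Tceb1, which encodes elongin C, Rbx1 and Rnf7, the last 2 being RING subunits. Tceb1 had 102 ± 7.30 RPKM in pemafibrate and 95.2 ± 6.78 RPKM in vehicle samples (log2 difference 0.10 ± 0.07, limma adjusted p = 0.730). Rbx1 had 38.9 RPKM in pemafibrate and 36.3 RPKM in vehicle samples, and Rnf7 had 67.3 RPKM in pemafibrate and 63.0 RPKM in vehicle samples. Of 12 other inhibitors of JAK and STAT signalling limma and voom called 0 as well, and 2 had an unadjusted limma p below 0.05. Those are Pias2, a SUMO ligase, with 15.2 ± 0.652 RPKM in pemafibrate and 16.9 ± 0.461 RPKM in vehicle samples, and Cblb, a ubiquitin ligase that restrains T cell activation, with 25.1 ± 1.27 RPKM in pemafibrate and 27.4 ± 0.535 RPKM in vehicle samples. The tyrosine phosphatase gene Ptpn1 had 101.8 RPKM in pemafibrate and 97.8 RPKM in vehicle samples. The list medians were 0.048 for the ligase and -0.0064 for the other inhibitors.

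Target genes of the STAT factors that the family restrains were read in 3 lists. In the STAT5 list, targets of the factor known to induce Cish and Socs2, limma called 0 of 15 tested genes. An unadjusted limma p under 0.05 was held by 6 of them, against 9.67% of all tested genes. Voom called 2 as higher, Foxp3 and Tnfrsf9, against 1.25% of all genes it tested. Foxp3 had 7.39 ± 1.34 RPKM in pemafibrate and 3.86 ± 0.424 RPKM in vehicle samples (limma adjusted p = 0.0573), and the costimulatory receptor gene Tnfrsf9 had 108.6 ± 3.64 RPKM in pemafibrate and 94.0 ± 3.44 RPKM in vehicle samples (limma adjusted p = 0.118). Gzmb, the other of the 3 genes with the smallest limma p in this list, was lower in pemafibrate (log2 difference -0.17, limma adjusted p = 0.232). The list's median was -0.0069, with 7 genes above 0 and 8 below. In the STAT3 list limma called 3 of 16 tested genes, against 0.352% of all tested genes. These were the lower genes Il21 and Il23r, already counted in the ligand and receptor lists, and Maf. In this list 14 of the 16 differences were below 0, with a median of -0.14. Maf, a transcription factor of interleukin 21 and interleukin 10 producing T cells, had 61.3 ± 3.96 RPKM in pemafibrate and 78.7 ± 2.20 RPKM in vehicle samples (limma adjusted p = 0.0412), and with 1 sample left out it passed only without pemafibrate 3 (adjusted p 0.0272 to 0.177). Voom called 6 of the STAT3 list lower and 1 higher, against 1.25% of all genes it tested. The STAT3 list was drawn up knowing that Th17 genes were lower in these data, so its direction is no independent evidence. The other lists, with the STAT5 and interferon targets, were also chosen with earlier results known, so their counts are not independent either.

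In the list of interferon targets, the programme that SOCS1 is known to restrain, limma called 0 of 18 tested genes. An unadjusted limma p under 0.05 was held by 4 of them, against 9.67% of all tested genes. Voom called 1, Irf8, as higher, against 1.25% of all genes it tested. Irf8, an interferon-induced transcription factor, had 42.0 ± 1.31 RPKM in pemafibrate and 34.8 ± 2.76 RPKM in vehicle samples (log2 difference 0.27 ± 0.06, limma adjusted p = 0.141, voom adjusted p = 0.0257). Psmb8, an immunoproteasome subunit, had 164 ± 10.7 RPKM in pemafibrate and 137 ± 11.9 RPKM in vehicle samples (0.26 ± 0.07, limma adjusted p = 0.237). Irf7 had 0.994 ± 0.208 RPKM in pemafibrate and 0.463 ± 0.0929 RPKM in vehicle samples (limma adjusted p = 0.198). These levels are near the filter of 0.5 RPKM. The Irf7 log2 difference of 0.63 became 0.44 with a pseudocount of 1 and 1.09 with voom. In this list 10 differences were above 0 and 8 below, with a median of 0.037, beside 0.0052 over all tested genes.

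**Figure D4:**
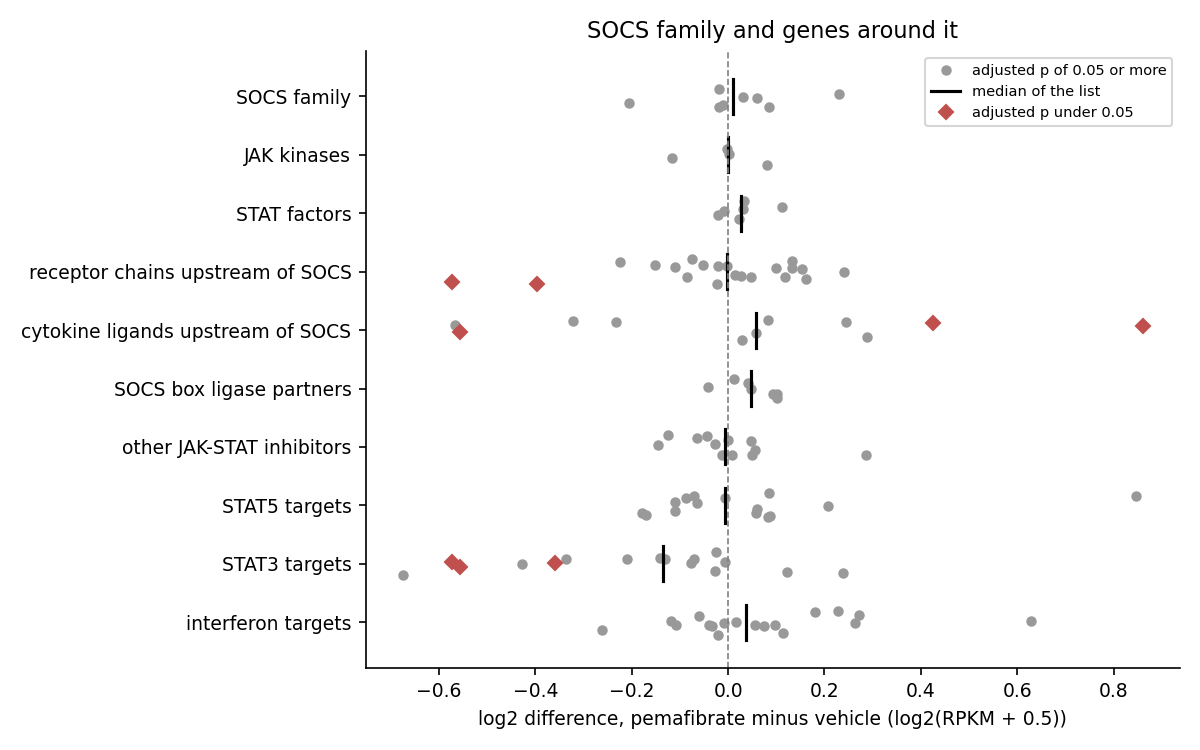
Log2 difference of each tested gene, pemafibrate minus vehicle, in the SOCS family and in 9 lists around it, where black lines are list medians and red diamonds are genes with a limma adjusted p under 0.05. The SOCS family holds no red diamond, the receptor list has 2 lower ones, the ligand list 2 higher and 1 lower, and the STAT3 target list 3 lower. Of the last 3, Il21 and Il23r are also drawn in the ligand and receptor lists.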

How the data were processed

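Wild-type naive CD4 cells of mouse spleen were driven towards Th17, and libraries were prepared from 1.0 µg of RNA with a stranded kit, according to the protocols in the labels. The submitters' processing notes name bcl2fastq, Trimmomatic 0.35, HISAT2 2.1.0, featureCounts 1.4.6, edgeR, GRCm38 and mm10. The authors deposited one RPKM value per gene and sample. Beside it the authors deposited a log2 fold change with its p-value and adjusted p-value, whose sign matches pemafibrate over vehicle in the RPKM values. Their deposited rank, an other unit, was not used. Annotation and strand setting are not given in the sources used here.

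The treatment label gave each sample its group. The test was limma 3.58.1 in R 4.3.3 on log2(RPKM + 0.5), which understates the change of low genes, for all genes averaging 0.5 RPKM or more (trend, no further scaling, Benjamini-Hochberg over all tested genes, threshold 0.05). Reads were recovered as the whole numbers that also give whole gene lengths. Their precision covers counting error only, and voom used genes averaging 10 or more. Replicate libraries differed by more than counting noise (chi-square per degree of freedom 2.86 to 8.68). The procedure was tested on simulated data. Some genes of the lists are not reported here. The members and lists were chosen with earlier results of these data known. Named genes are all members, the called genes of each list or else its 3 with the smallest p, and the 4 nearest profiles of 2 members. Lists of cell type markers were left out of this rule. Alternatives changed the pseudocount (0.1 or 1), the filter (none or 2 RPKM), the scaling (median ratios or quantiles), the variance model (array weights or robust moderation), added the title number as a block, used voom, or left out 1 sample. Figures used matplotlib 3.10.9 in Python 3.11.15.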

Additional observations from a re-analysis of the deposited data

How the results depend on the processing

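No family member passed an adjusted p of 0.05 under any of the 16 alternatives, and Socs1, Socs2, Socs4 and Socs7 kept their direction in all of them. With array weights the log2 difference turned to 0.0021 for Cish and 0.0424 for Socs5. Leaving out each sample gave -0.0502 (without pemafibrate 7) to 0.0090 (without pemafibrate 3) for Cish, -0.0356 to 0.0016 (without pemafibrate 3) for Socs3, -0.0513 to 0.0426 (without vehicle 4) for Socs5, and -0.00041 (without pemafibrate 3) to 0.0642 for Socs6. Of the named genes around the family, Jak1 ran from -0.0088 to 0.0032 in the same way. The 6 called genes of the lists other than markers kept their direction in all 16 alternatives. The call was lost in 11 of them for Il12rb2, 9 for Il22, 7 for Il23r and Maf, 6 for Il9 and 3 for Il21. Calls were also gained, in 9 results of named genes that limma had not called. Foxp3 passed with the 2 RPKM filter (adjusted p 0.0444), robust moderation (0.0416), array weights (0.0152), voom (0.0024) and without pemafibrate 3 (0.0416). Irf8 and Tnfrsf9 passed with array weights (0.0396 for each) and with voom (0.0257 and 0.0312). The cause was not tested. The count of 40 genes called over the whole table was 7 with no filter, 140 with array weights, 148 with voom and 0 to 25 with 1 sample left out (0 without pemafibrate 7, 25 without pemafibrate 3). For the shared title numbers 3 and 7, same-numbered deviations from the group means had correlations of 0.03 and -0.0083. Differently numbered pairs ran from -0.22 (pemafibrate 3 with vehicle 4) to 0.20 (pemafibrate 8 with vehicle 4). These values show no likeness by number, but they cannot tell whether same-numbered samples share an animal or culture. With the title number as a replicate block 0 genes were called, the Socs1 difference was -0.17 (unadjusted p = 0.0326) and that of Socs5 turned to 0.0423. Vehicle 4 and pemafibrate 8 share their number with no other sample and did not enter these differences. That fit therefore rests on the samples numbered 3 and 7 and has little spread to judge them by. For Socs5, which had the fewest reads, differences inside its interval of -0.21 to 0.19 cannot be told from 0 at this depth.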
